A study of Homo sapiens with 6 samples.

Results

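The genes described here are 7 human genes best known from liver and intestine, measured in the lung adenocarcinoma line Calu3, whose cells resemble those of airway glands. They are albumin (ALB), alpha-fetoprotein (AFP), afamin (AFM), the vitamin D binding protein (GC), the microvillus protein villin (VIL1) and the transcription factors GATA6 and CDX2. All 7 were found by symbol in the deposited table of 26364 genes. They were picked with the BRD8 comparison already known, so their differences between treatments are given as descriptions, without a test. Cells received either a negative control siRNA or an siRNA against BRD8, a bromodomain protein of the TIP60 (NuA4) complex, which acetylates histones, each at the labelled amount of 20 nmol with a lipid transfection reagent. Each treatment has 3 RNA-seq libraries, and the cell line and transfection are shared by both. Separate cultures are not mentioned in the labels, so p-values here reflect variation from library to library that may be technical alone. The design holds 1 reagent against BRD8, so effects of that reagent apart from BRD8 loss cannot be told apart from those of BRD8 loss.

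ALB, AFP, AFM and GC form one gene family on chromosome 4 and encode secreted carrier proteins of blood plasma. Albumin carries fatty acids, hormones and drugs, alpha-fetoprotein is its fetal counterpart, afamin carries vitamin E and lipid-modified Wnt proteins, and the GC product carries vitamin D metabolites and binds actin monomers. In the liver C/EBP, forkhead and nuclear receptor factors act on these genes. Villin bundles and severs the actin filaments of intestinal microvilli. CDX2 is a master regulator of intestinal identity, and GATA6 is a zinc finger factor of endoderm that also acts in the developing lung.

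No promoter sequence was at hand for GC, the remaining gene of the family, or for VIL1, so the comparison of family promoters lacks GC. The promoters of ALB, AFP and AFM are shown because they belong to members of one family that differed in these libraries: ALB and AFP had more reads after BRD8 siRNA and AFM had none in any library. They are the 250 bases before the start of each gene from RefSeq on GRCh38.p14, matched by symbol, on the plus strand, at chr4:73404037-73404286 for ALB, chr4:73435971-73436220 for AFP and chr4:73481495-73481744 for AFM. Capitals mark the C/EBP letters TTGCNNAA and the CCAAT box in either direction and the TATA box TATAAA.
ALB: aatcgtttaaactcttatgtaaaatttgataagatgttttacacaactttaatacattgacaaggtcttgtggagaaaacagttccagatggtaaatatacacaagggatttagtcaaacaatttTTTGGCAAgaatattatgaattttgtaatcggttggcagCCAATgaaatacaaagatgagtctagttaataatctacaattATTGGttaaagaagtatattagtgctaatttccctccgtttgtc
AFP: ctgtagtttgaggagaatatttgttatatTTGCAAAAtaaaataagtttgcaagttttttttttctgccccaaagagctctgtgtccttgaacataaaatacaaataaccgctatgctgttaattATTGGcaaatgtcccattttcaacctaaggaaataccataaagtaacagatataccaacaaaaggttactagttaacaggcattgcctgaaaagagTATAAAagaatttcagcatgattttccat
AFM: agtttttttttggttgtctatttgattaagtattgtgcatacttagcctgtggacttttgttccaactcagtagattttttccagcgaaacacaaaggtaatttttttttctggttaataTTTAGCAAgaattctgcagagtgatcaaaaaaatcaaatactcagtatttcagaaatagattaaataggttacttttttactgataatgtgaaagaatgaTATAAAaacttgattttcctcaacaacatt

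The C/EBP letters TTGCNNAA, in which N is any base, occurred once in each of the 3 promoters, 125 to 118 bases before the start of ALB, 221 to 214 before AFP and 130 to 123 before AFM. They occurred, on either strand, in 9.05% of 35116 RefSeq promoter windows of the same length. CCAAT was found in ALB and AFP and in 32.0% of all windows. TATAAA was found in AFP and AFM, and in 10.7% of all windows. Of the other letters searched on both strands, the forkhead letters TGTTTNC occurred in ALB, against 15.5% of all windows, and the GATA letters AGATAA in none of the 3, against 9.17%. None of the matches overlapped another. The bases that matched differed, with TTTGGCAA in ALB and TTTAGCAA in AFM, both in the reverse direction, and TTGCAAAA in AFP. These matches are a description of letters and not of bound sites. Windows were also held for GATA6 and CDX2, in which the C/EBP letters were not found.

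The libraries held 33640814 to 37896467 reads assigned to genes. In the control libraries BRD8 stood at 2751, 2928 and 3067 normalized counts (reads scaled by each library's size factor), and in the BRD8 siRNA libraries at 1312, 1084 and 1156. Its log2 fold change was -1.30 (SE 0.0904, limma adjusted p = 1.13e-04). BRD8 shares 132 exon bases with KIF20A, a mitotic kinesin gene on the opposite strand, and the kit used keeps no strand information. Control library 2 stood apart from the other 5 libraries along the second principal component (20.6% of the variance). The 12 markers of airway and glandular epithelium summed to between 528869 and 637729 normalized counts in the controls. After BRD8 siRNA they summed to between 713321 and 774753, with 6 of the 12 higher and none lower. Over all 15354 genes tested by limma, 10.1% were called higher and 8.93% lower. The 5 markers of airway basal cells summed to between 402 and 581 and between 866 and 1026, with KRT14, at means of 303 and 756, and TP63, at 13.1 and 27.2, higher. The other basal markers KRT5, NGFR and DLK2 lay slightly lower and did not pass. Of 7 alveolar type 2 markers SFTPD, at means of 12.1 and 40.0 (limma adjusted p = 0.00497), and LAMP3, at 106 and 157 (0.0195), were higher. ABCA3, the most abundant of them, stood at 1543 and 1507 and did not pass. Of 4 ciliated cell markers RSPH1 and CCDC78 were higher. DNAH5, the most abundant of these, stood at 493 and 390 and did not pass. The ciliated markers summed to between 587 and 818 normalized counts in the controls and between 657 and 759 after BRD8 siRNA. The part of these marker shifts in the values of the 7 genes was not tested. The lung factor NKX2-1 had a single read in all libraries together, and the surfactant gene SFTPC had 1 as well. Of 18 hepatocyte markers outside the plasma protein genes, 8 had a mean under 10 and CYP7A1, the rate-limiting enzyme of bile acid synthesis, had 0 reads in all libraries. Of 10 enterocyte markers, 8 had a mean under 10, and the factor CDX1 and the metalloprotease gene MEP1A had 0 reads.

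The chromosome 4 genes fell into a detected and an undetected group. ALB had 5.69, 9.72 and 4.07 normalized counts in control libraries 1, 2 and 3, and 82.1, 60.7 and 59.9 in BRD8 siRNA libraries 1, 2 and 3. In reads these are 6, 9 and 4 against 79, 64 and 62. Every BRD8 siRNA library thus lay far above every control library, and library 1 was the highest of them. The group means were 6.49 ± 2.91 and 67.6 ± 12.6 (SD, n = 3 each), a log2 fold change of 3.25 (SE 0.317) on the log2(value + 1) scale. From 19 control and 205 BRD8 siRNA reads, scaled for depth, the ratio was 10.5, with an exact 95% interval of 6.55 to 17.8 that covers counting error only. The authors' deposited table gives 3.39 with a standard error of 0.444 for the log2 fold change of ALB.

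GC was the most abundant of the 4 family genes in every library. It had 41.7, 39.9 and 48.8 normalized counts in the controls and 262, 185 and 183 after BRD8 siRNA. The groups did not overlap, and as for ALB the first BRD8 siRNA library was the highest and the other 2 lay close together. The means were 43.5 ± 4.68 and 209.9 ± 45.1 (SD, n = 3 each), a log2 fold change of 2.23 (SE 0.177). The authors' deposited table gives 2.27 for GC, with a standard error of 0.234.

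AFP, the fetal member, was at the edge of detection in the controls. It had 3, 1 and 1 reads there and 6, 20 and 14 reads after BRD8 siRNA, which are 2.84, 1.08 and 1.02 against 6.24, 19.0 and 13.5 normalized counts. Since 3 reads, the floor used here, equal 2.84 to 3.24 normalized counts depending on the library, the controls lay at or under it and the 3 BRD8 siRNA libraries above it. From 5 and 40 reads the depth-scaled ratio was 7.78, with an exact 95% interval of 3.07 to 25.2. Here BRD8 siRNA library 1 was the lowest of its group, whereas for ALB and GC it was the highest. AFM had 0 reads in all 6 libraries, and 0 reads allow up to 3 reads per library, so no difference could be detected for it.

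The balance between ALB and GC was similar across the BRD8 siRNA libraries. Of the reads of both genes together, ALB made up 23.9% (exact 95% interval 19.4 to 28.8), 24.7% (19.6 to 30.4) and 24.7% (19.5 to 30.5) in libraries 1, 2 and 3. In control libraries 1, 2 and 3 it made up 12.0% (4.53 to 24.3), 19.6% (9.36 to 33.9) and 7.69% (2.14 to 18.5). The 3 control shares lay below the BRD8 siRNA shares, but they rest on 46 to 52 reads each and their intervals overlap those of the BRD8 siRNA libraries, except that of control library 3, which lies below all 3.

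The intestinal structural gene was already well expressed. VIL1 had 826, 959.8 and 890.3 normalized counts in the controls and 1616, 1314 and 1441 after BRD8 siRNA. The lowest BRD8 siRNA library lay above the highest control, and library 1 was again the highest. The means were 892 ± 67.2 and 1457 ± 151 (SD, n = 3 each), a log2 fold change of 0.71 (SE 0.0994). The exons of VIL1 share 3045 bases with USP37 on the opposite strand in GENCODE 29, and reads there cannot be told apart without strand. USP37, a ubiquitin protease gene, had 1062 ± 186 normalized counts in the controls and 901 ± 92.8 after BRD8 siRNA, the opposite direction to VIL1.

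Of the 2 transcription factors among the 7, one was abundant and the other barely detected. GATA6 had 1933, 1642 and 1753 normalized counts in the controls and 1743, 2069 and 2049 after BRD8 siRNA. The groups overlapped, since BRD8 siRNA library 1 lay inside the control range while libraries 2 and 3 lay above it. Its log2 fold change was 0.14 (SE 0.0965), from 1776 ± 147 to 1954 ± 183 (SD, n = 3 each). GATA6 shares 240 exon bases with GATA6-AS1 and 321 with AC091588.3, both on the opposite strand, and the second was not matched to a gene of the table. CDX2 had 4, 2 and 3 reads in the controls and 5, 6 and 6 after BRD8 siRNA, or 3.79, 2.16 and 3.05 against 5.20, 5.69 and 5.80 normalized counts. The 2 sets of values did not overlap, but the depth-scaled ratio of 1.84 has an exact 95% interval of 0.774 to 4.67, so a difference in CDX2 was not detectable at this depth.

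**Figure D1:**
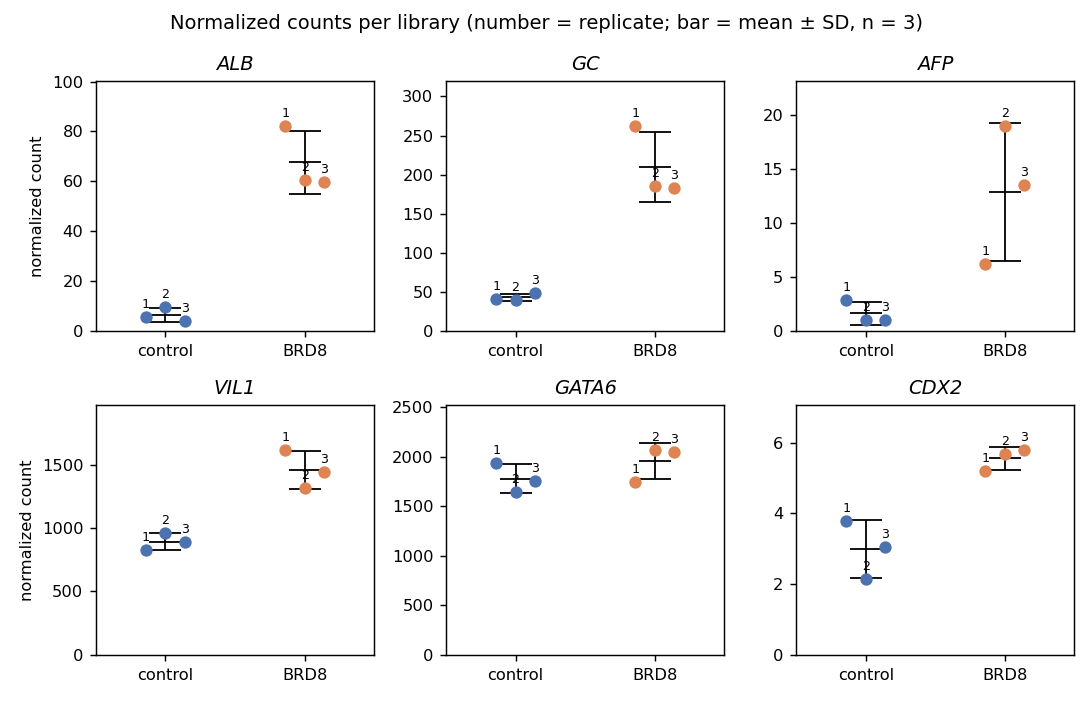
Normalized counts (linear axes from 0) of 6 of the 7 genes in the 3 control and 3 BRD8 siRNA libraries, with library numbers, means and SD; AFM, at 0 in all libraries, is left out. ALB, GC, AFP, VIL1 and CDX2 show groups that do not overlap, on very different scales, while those of GATA6 overlap.

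Compared per kilobase of merged exons, the 7 genes differed widely in level. In the controls GATA6 had 450.2 ± 37.3 normalized counts per kilobase, VIL1 129.8 ± 9.77, GC 20.8 ± 2.24 and ALB 2.86 ± 1.28 (SD, n = 3). CDX2, at 0.740 ± 0.202, and AFP, at 0.663 ± 0.417, did not differ beyond their spread, and AFM was at 0. After BRD8 siRNA the order was GATA6 at 495 ± 46.3 normalized counts per kilobase, VIL1 at 212 ± 22, GC at 101 ± 21.6, ALB at 29.8 ± 5.56, AFP at 5.20 ± 2.57 and CDX2 at 1.37 ± 0.0791. ALB therefore stayed below GC, VIL1 and GATA6 on this scale in both groups, although its ratio had the highest point estimate of the 6 genes with reads. The interval of the AFP ratio contains that of ALB. In bulk RNA, more cells with a transcript and more of it per cell cannot be told apart.

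With respect to the cutoff of 10 normalized counts for the control mean, ALB, AFP, AFM and CDX2 lay under it. The nearest below was ALB at 6.49 and the nearest above was GC at 43.5. The test across all genes took genes with a mean of at least 10 over all libraries, which 4 of the 7 met: ALB, GC, VIL1 and GATA6. ALB met it only through the BRD8 siRNA libraries, and of the 155 tested genes with a control mean under 10, 100% had a log2 fold change above 0. Of these 155, 20.0% were called higher. Of the 4 genes that could be tested, ALB, GC and VIL1 were called higher and none lower, where 19.0% of all 15354 tested genes were called in either direction 10.1% higher and 8.93% lower. Groups that did not overlap were found for 5 of the 7 genes, against 36.8% of all tested genes. The 2 figures are not alike, since AFP and CDX2 are among the 5 and were not tested. Nothing is read from these shares, since the 7 genes were chosen on this comparison.

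Across the 15 alternative ways of processing the data that gave a value, the log2 fold change of GC ranged from 2.06 to 2.32 and that of VIL1 from 0.63 to 0.80. For GATA6 the range was 0.08 to 0.22. ALB had 14 alternatives, since a stricter filter removed it, and ranged from 2.68 to 3.54, with the lowest value at a pseudocount of 5.

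The gene order along chromosome 4 was used to set the albumin family beside its neighbours. Between GC and ALB lie NPFFR2, ADAMTS3, COX18 and ANKRD17, and beyond AFM lie RASSF6 and a cluster of CXC chemokine genes. COX18, a mitochondrial assembly factor, had 449 ± 16.3 normalized counts in the controls and 445 ± 31.1 after BRD8 siRNA, and its log2 fold change of -0.01 was 0.10 once a trend on transcript length and GC content had been removed and 0.0014 with quantile normalization. The ankyrin repeat gene ANKRD17, directly before ALB, stood at 3919 ± 760.3 and 3255 ± 361 (log2 fold change -0.25, limma adjusted p = 0.269), but without control library 2 it fell by 0.43, at an adjusted p of 0.00433. NPFFR2, a neuropeptide receptor, and ADAMTS3, a procollagen protease, had means under 10 and were not tested. ADAMTS3 had 4.74, 1.08 and 2.03 normalized counts in the controls and 11.4, 6.64 and 4.83 after BRD8 siRNA. In reads these are 5, 1 and 2 against 11, 7 and 5. Control library 1 and BRD8 siRNA library 3 thus held equal reads, and only the scaling for depth set them apart. NPFFR2 overlapped between groups, at means of 3.76 and 4.80. The abundant genes next to the silent or nearly silent family genes therefore did not pass the test with all libraries.

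On the far side, RASSF6, a Ras association domain gene, had 2535 ± 412 and 2888 ± 217 normalized counts (log2 fold change 0.20, limma adjusted p = 0.296). After removal of that trend its adjusted p was 0.00214, at a log2 fold change of 0.32. Next to it CXCL8, a neutrophil chemokine, rose from 5194 ± 107 to 9457 ± 149.5 (log2 fold change 0.86, adjusted p = 1.34e-04) and CXCL6 from 2564 ± 30.0 to 7946 ± 491 (log2 fold change 1.63, adjusted p = 1.25e-05). On the other side of GC, the bicarbonate transporter SLC4A4, the nucleoside kinase DCK and the kinase adaptor MOB1B had log2 fold changes of -0.23, -0.28 and -0.21, and none passed. Without control library 2 their adjusted p-values were 0.0180, 0.00762 and 0.0111, and their log2 fold changes -0.41, -0.36 and -0.39. DCK also passed after removal of the length and GC trend (0.0243) and with a replicate block (0.0471), and ANKRD17 with the block (0.0381). DCK and MOB1B share 199 exon bases. Of the 10 neighbours 8 were tested and 2 rose, both chemokine genes, beside 10.1% called higher over all tested genes. Of the 4 genes between GC and ALB, ADAMTS3 alone had BRD8 siRNA values all above the controls, by scaling alone for its nearest libraries. Of all tested genes, which leave out ADAMTS3, 18.9% had BRD8 siRNA values all above the controls.

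**Figure D2:**
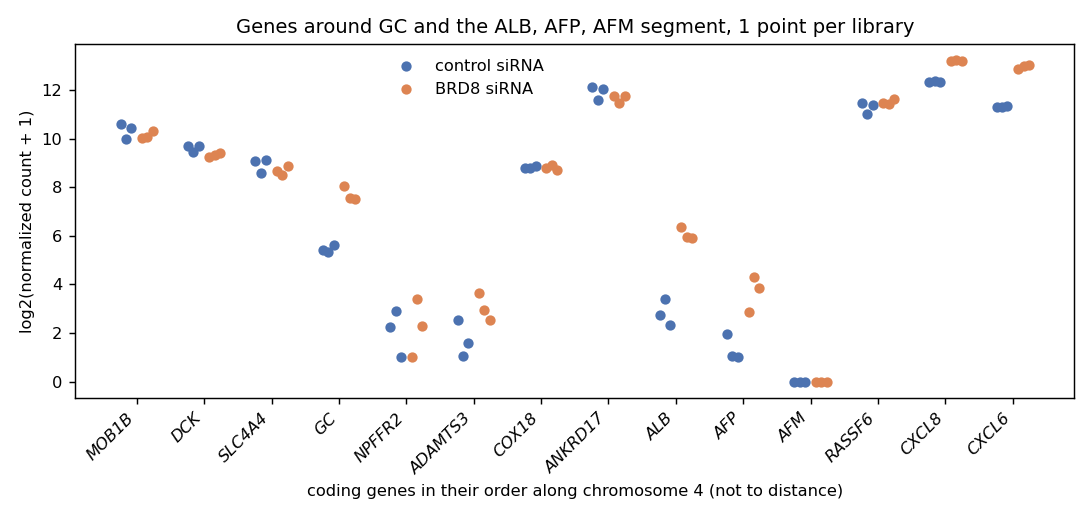
Log2(normalized count + 1) in each library for the coding genes around GC and the ALB, AFP, AFM segment, in their order along chromosome 4 on GRCh38 and not to distance. BRD8 siRNA points lie above control points for GC, ADAMTS3 (barely, at 1 to 11 reads), ALB, AFP, CXCL8 and CXCL6, as they do for 18.9% of all tested genes. AFM is at 0 and ANKRD17 and COX18 overlap between groups.

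Other genes of hepatocyte secretion were examined in a list of 47, which holds ALB, AFP, AFM and GC. Without these 4, 23 of 43 genes could be tested, of which 11 rose, none fell and 12 did not pass, where 10.1% of all tested genes were called higher and 8.93% lower. The list had a median log2 fold change of 0.61 against -0.01 over all tested genes. Of the 11, AHSG, FETUB and FGG had control means under 10 and reached the test only through the BRD8 siRNA libraries, so their direction was fixed by the filter. Untested were 20, among them APOA2, APOB and F9, the genes of 2 apolipoproteins and of a clotting factor, with 0 reads in all libraries. With the 4 family genes the count was 13 higher of 25, but this adds ALB and GC, which were chosen on this comparison. The counts under alternatives include chosen genes too, so they do not show how stable the list is without them. It was 7 at a mean of at least 50, a filter that removes the low genes, and 9 to 15 with single libraries left out.

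The rises in this list included plasma proteins that, like ALB, were low in the controls. AHSG, which encodes the carrier fetuin-A, had 7.08 ± 2.67 normalized counts in the controls and 35.2 ± 7.07 after BRD8 siRNA (log2 fold change 2.19, SE 0.318). Its direction was fixed by the filter, so no p-value is given for it. ITIH1 and ITIH4, heavy chains of hyaluronan-binding protease inhibitors, rose by 1.82 and 1.68 on the log2 scale. ITIH4 shares 4021 exon bases with AC006254.1 on the same strand and 228 with ITIH4-AS1 on the opposite strand, so its value is uncertain. FGL1, a fibrinogen-like liver protein, rose from 35.5 ± 6.20 to 93.8 ± 9.26. The log2 fold changes of FETUB, the fetuin paralog, and FGG, the fibrinogen gamma chain, were 1.63 and 1.38, from control means of 6.27 and 6.09 normalized counts. The direction of both was fixed by the filter as well, so no p-value is given for them. FETUB lost even this call without control library 3 or any 1 of the BRD8 siRNA libraries. FGG lost its call without control library 1 or any 1 of the BRD8 siRNA libraries.

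Other low members of the list lay lower after BRD8 siRNA and did not pass or were not tested, and 4 of them are named here after their values were seen. The lipoprotein gene APOE had 46.1 ± 8.01 normalized counts in the controls and 23.9 ± 11.8 after BRD8 siRNA, with groups that did not overlap (limma adjusted p = 0.0945). TTR, the thyroxine carrier transthyretin, stood at 16.6 ± 6.26 and 11.2 ± 2.08, and HPX, the heme carrier hemopexin, at 20.0 ± 4.80 and 16.4 ± 0.929. SERPINC1, the antithrombin gene, had 1, 4 and 2 reads in the controls and 0 in each BRD8 siRNA library. The low plasma protein genes thus did not all lie on the same side as ALB.

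Abundant members of the same list were also called higher in part. SERPINA1, the antitrypsin gene, rose by 0.64 on the log2 scale (limma adjusted p = 0.00464), from 15119 ± 2336 to 23341 ± 676 normalized counts. SAA1, an acute-phase apolipoprotein with a close paralog in SAA2, rose by 0.93. CP, the copper oxidase ceruloplasmin, rose by 0.58, a call lost without control library 3, BRD8 siRNA library 2 or BRD8 siRNA library 3 (adjusted p 0.0629 to 0.0873). SERPINA3, the antichymotrypsin gene and the most abundant of the list, stood at 100207 ± 16744 and 107264 ± 4291 (adjusted p = 0.554), and without control library 2 its adjusted p was 0.0307, at a log2 fold change of 0.24. The exons of CP overlap HPS3 on the other strand, and those of SERPINA3 share 1592 bases with AL049839.2 on the same strand. The 18 hepatocyte markers that are not plasma proteins summed to between 2357 and 2678 normalized counts in the controls and between 2585 and 2880 after BRD8 siRNA. Of them 3 rose, the drug-metabolizing cytochrome CYP3A4 among them, and none fell, beside 10.1% higher and 8.93% lower over all tested genes. The part of these markers in the result was not tested.

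VIL1 belongs to a list of 37 brush border and enterocyte genes. Without it, 22 of 36 could be tested, of which 9 rose, 2 fell and 11 did not pass, beside 10.1% higher and 8.93% lower over all tested genes. The median log2 fold change was 0.40. CDH17, the liver-intestine cadherin, rose by 1.68 on the log2 scale (SE 0.107, limma adjusted p = 8.70e-05), from 485 ± 51.0 to 1553 ± 146 normalized counts. ESPN, which encodes the actin bundler espin, rose from 51.2 ± 9.04 to 168 ± 43.4, though it shares 383 exon bases with TNFRSF25 on the other strand, whose log2 fold change was 0.82. TREH, the trehalose-splitting enzyme of the brush border, rose by 1.56 and SLC5A1, the sodium-glucose transporter, by 0.57 on the log2 scale. TREH overlaps PHLDB1 on the other strand.

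Among other microvillus genes the directions differed. EZR, ezrin, which ties the membrane to actin, rose by 0.34 on the log2 scale, from 70528 ± 1147 to 89469 ± 2091 normalized counts, without a call when control library 3 or BRD8 siRNA library 2 was left out (limma adjusted p 0.0648 and 0.0635). USH1C, the scaffold protein harmonin, fell from 3109 ± 393 to 2206 ± 112 (log2 fold change -0.49, adjusted p = 0.01), and at 0.0502 without BRD8 siRNA library 3. The actin bundler PLS1, at 9878 ± 1242 and 9977 ± 801, did not pass (adjusted p = 0.918). EPS8, an actin capping protein, did not pass either with all libraries, at a log2 fold change of -0.19, but had an adjusted p of 0.0104 without control library 2. The keratin KRT20 and the aminopeptidase ANPEP rose by 0.77 and 0.74, and both lost their calls whenever any library but control library 2 was left out (0.0950 to 0.115 and 0.0663 to 0.123). With quantile normalization they did not pass either (0.0688 and 0.0607), and KRT20 did not without a filter (0.0614). LGALS4, an intestinal galectin, had an adjusted p of 0.0769 with all libraries and was called higher under 5 alternatives, at 9.11e-04 without control library 2 and 0.0154 to 0.0424 under the other 4.

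The list with VIL1, which was chosen on this comparison, counted 10 genes higher and 2 lower, and without control library 3 there were 6 higher. The genes lower numbered 1 without control library 1, control library 3, BRD8 siRNA library 1 or BRD8 siRNA library 2, and 0 without BRD8 siRNA library 3. The 10 enterocyte markers summed to between 368 and 408 normalized counts in the controls and between 589 and 667 after BRD8 siRNA. Of them SLC5A1 and TREH rose and the other 8 had means under 10, beside 10.1% called higher over all tested genes. The part of these markers in the result was not tested.

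**Figure D3:**
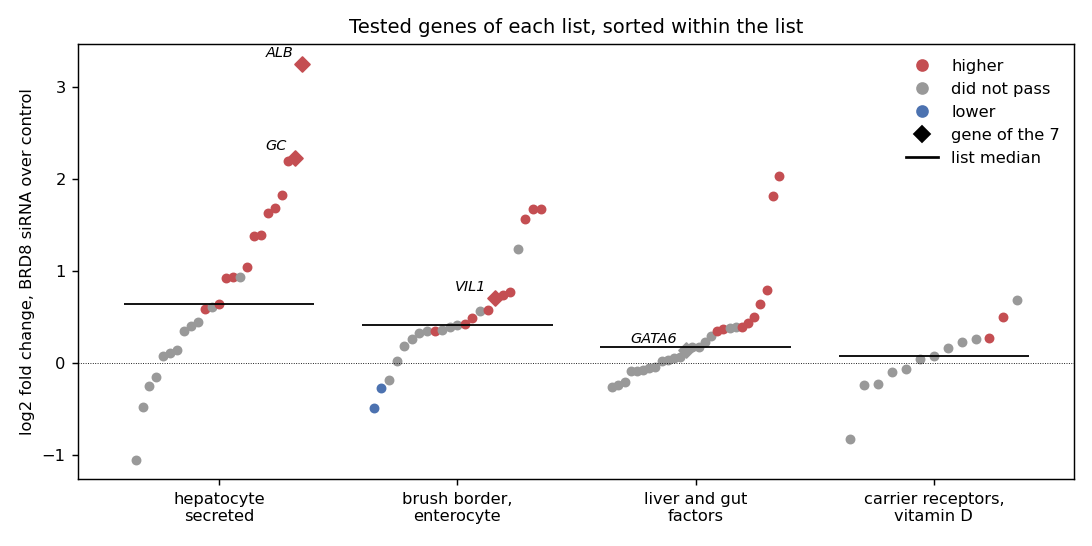
Log2 fold change (BRD8 siRNA over control, log2(value + 1) scale) of every tested gene in 4 lists, sorted within each list and coloured by the limma call at an adjusted p of 0.05; lines are list medians and diamonds mark ALB, GC, VIL1 and GATA6. ALB lies at the top of the secreted protein list at 3.25, VIL1 in the upper part of the brush border list at 0.71 and GATA6 near the median of the factor list at 0.14.

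Factors known to act on these genes in liver and gut were present at quite different levels. In a list of 39 factors with GATA6 and CDX2, 28 could be tested, of which 9 rose, none fell and 19 did not pass, beside 10.1% higher and 8.93% lower over all tested genes. The median log2 fold change was 0.18. Without GATA6 and CDX2 the counts were 9 higher and 18 not passing of 27. CEBPA, which drives hepatocyte genes, rose from 10.01 ± 2.39 to 43.8 ± 9.10 normalized counts, although its exons overlap antisense genes. NR1H4, the bile acid receptor FXR, rose by 1.81 on the log2 scale (SE 0.106, limma adjusted p = 6.11e-05), from 209 ± 24.7 to 733 ± 29.3. FOXA3 and FOXA1, pioneer factors of the forkhead family, rose by 0.80 and 0.64.

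HNF4A, a nuclear receptor central to hepatocytes, stood at 2979 ± 86.0 and 2514 ± 175 (log2 fold change -0.25, limma adjusted p = 0.0532), with groups that did not overlap. HNF4A was called lower under 6 alternatives, among them DESeq2 (adjusted p = 0.0364), a replicate block (0.0413), leaving out control library 2 (0.0274) and leaving out BRD8 siRNA library 1 (0.0477). Its paralog HNF4G had a log2 fold change of 0.30 (adjusted p = 0.105) and was called higher after removal of the length and GC trend (0.00213) and with a replicate block (0.0457).

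The remaining factors named here changed less or were near 0. CEBPB, the stress-responsive C/EBP factor, rose by 0.50, the nuclear receptor NR2F2 by 0.39 and the homeobox factor HHEX by 0.37 on the log2 scale. CEBPB and HHEX lost their calls without control library 3 (limma adjusted p = 0.0624 and 0.0598) and without BRD8 siRNA library 2 (0.0509 and 0.0507). FOXA2 and GATA4, at 94.3 ± 14.6 and 103 ± 6.23 normalized counts in the controls, did not pass, and CDX1, the paralog of CDX2, had 0 reads. The abundant factors SOX9, KLF5 and ONECUT2 did not pass either with all libraries, at log2 fold changes of -0.26, -0.09 and 0.02. SOX9 had an adjusted p of 0.0571 and was called lower under 5 alternatives, with values from 0.0112 without control library 2 to 0.0495 with a replicate block. ONECUT2 was called higher after removal of the length and GC trend (0.0451), yet was at -0.17 without control library 2, -0.04 without BRD8 siRNA library 1 and -0.04 without BRD8 siRNA library 3. The count of factors lower was 3 without control library 2 and 1 without BRD8 siRNA library 1.

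**Figure D4:**
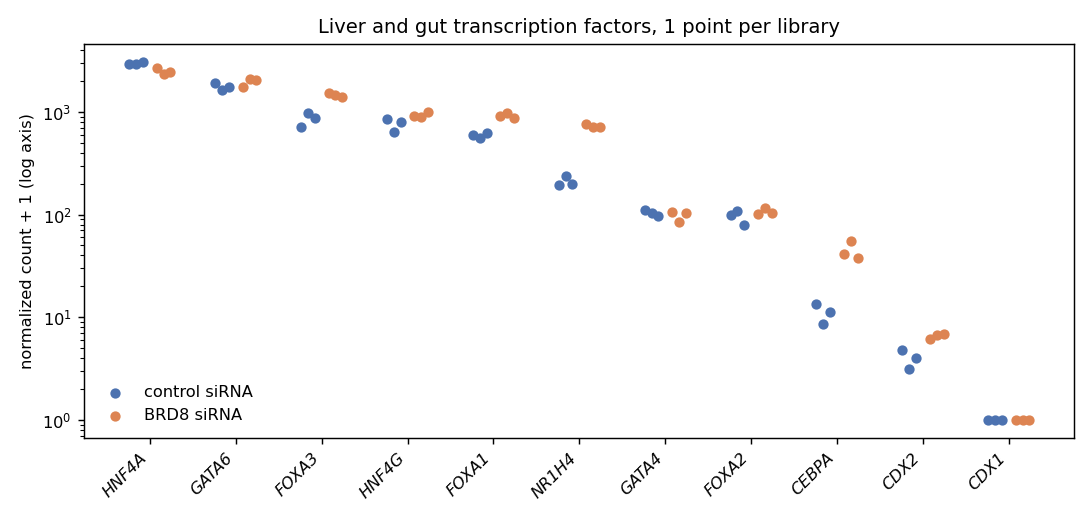
Normalized count + 1 (log axis) of 11 liver and gut factors in each library. HNF4A and GATA6 lie between 1642 and 3072 normalized counts in every library, CEBPA and NR1H4 are higher after BRD8 siRNA, and CDX2 lies under 6 and CDX1 at 0.

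Receptors and partners of albumin and of the GC product mostly did not pass. Of 14 such genes 13 were tested, 2 rose, none fell and 11 did not pass, at a median log2 fold change of 0.08. The share called, 15.4%, is near the 19.0% over all genes. CYP2R1, the hydroxylase that starts vitamin D activation, rose by 0.50 on the log2 scale (limma adjusted p = 0.00797), from 420 ± 33.6 to 593 ± 29.4 normalized counts. The disulfide isomerase PDIA3 rose by 0.27 and lost its call whenever any library but control library 2 was left out (adjusted p 0.0833 to 0.134) and without a filter (0.0513). The vitamin D receptor VDR stood at 479.6 ± 36.3 and 448 ± 33.6, and its partner RXRA at 1038 ± 27.5 and 1212 ± 7.05 (adjusted p = 0.0571), a gene that passed under 6 alternatives, with values of 0.0273 without control library 2 and 0.0126 after removal of the length and GC trend among them. FCGRT, the receptor that rescues albumin from breakdown, stood at 1472 ± 173 and 1403 ± 137 (log2 fold change -0.07), and at 0.02 without control library 2. Its light chain B2M had an adjusted p of 0.240 with all libraries and 0.0196 without control library 2. The genes higher in this list numbered 1 without control library 1, control library 3, BRD8 siRNA library 2 or BRD8 siRNA library 3, while without control library 2 there were 4 higher and 1 lower.

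Genes whose levels followed those of the 4 tested genes most closely over the 6 libraries were sought by Pearson correlation of log2 values among 13080 genes, or 13081 for ALB, with a mean of at least 50. For ALB these were the paired-box factor PAX8 (r = 0.998), the fucose transporter SLC35C1 (r = 0.997) and C10orf54 (r = 0.997). For GC they were the cholesterol hydroxylase CH25H (r = 0.999), the cytochrome CYP2C18 (r = 0.998) and the tetraspanin TSPAN14 (r = 0.997). VIL1 was followed by ARHGAP1, NPC1L1, an intestinal sterol transporter, and HBEGF, each at r = 0.996, and GATA6 by WNK2 (r = 0.997), FAM110B (r = 0.991) and ZNF517 (r = 0.987). The 6 points share the split into treatments, so these values are descriptions. CH25H, the closest to GC, had 47.9 ± 4.29 normalized counts in the controls and 115 ± 14.4 after BRD8 siRNA, and PAX8, the closest to ALB, had 699 ± 50.8 and 1029 ± 24.8.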

How the data were processed

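The samples were Calu3 cells with control or BRD8 siRNA, 3 libraries each, grouped by sample title; the extraction protocol in the labels speaks of another bronchial epithelial cell. STAR 2.6, featureCounts 1.6.3, DESeq2 1.22.1 and hg19 are named in the submitters' processing notes; strand setting and annotation: not given in the sources used here. Deposited expression values are a normalized signal, gene counts that the authors divided by size factors. The authors also deposited a log2 fold change with a standard error, a test score and p-values, of which only the fold change and its error are used here. Whole reads were recovered, with 100% of values whole within 0.01. R 4.3.3 and limma 3.58.1 (trended prior variance) were used on log2(normalized count + 1) for the 15354 genes whose mean reached 10, two-sided, with Benjamini-Hochberg adjusted p-values and a threshold of 0.05; this scale understates the change of low genes. edgeR 4.0.16 and DESeq2 1.42.0 on the recovered reads, other filters, pseudocounts and scalings, a replicate block and leaving out each library were alternatives. edgeR called 2969 genes, of which 2851 were called in the same direction by limma. The model was tested on simulated data. The genes, the 4 lists, the 7 marker lists and the tests were chosen with earlier results of these data known. Besides the 7 genes and BRD8, the naming rule took from each list up to 8 called genes with the largest fold change and the 4 most abundant others, 10 liver and gut factors (some genes are not reported here), 3 coding neighbours on each side of GC and of the ALB segment, and 3 genes most like each tested gene. List genes with a value but without statistics are named only for their place in a count, after their values were seen. Exon lengths and overlaps are from GENCODE 29 and gene order from RefSeq, both GRCh38 and not the build of the data. Symbols matched GENCODE for 23747 genes and 93.5% of those tested. Intervals and the floor of 3 reads cover counting error only, since reads are not independent molecules.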

Additional observations from a re-analysis of the deposited data

How the results depend on the processing

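After a trend on transcript length and GC content was removed, 2397 genes were higher and 2400 lower, against 1549 and 1371, and 1 secreted protein gene and 2 factors were lower. Leaving out single libraries gave 832 to 2445 genes higher and 528 to 2784 lower, 6 to 14 brush border genes higher and 0 to 3 lower, 0 to 3 factors lower, and 1 to 4 carrier receptor and vitamin D genes higher and 0 to 1 lower. A mean of at least 50 left 7 secreted protein genes higher and 1 factor lower. The counts of lists that hold any of the 7 genes include those chosen genes. With no filter 1 secreted protein gene was lower and 1 carrier receptor gene was higher. DESeq2 called 2 factors lower and quantile normalization 1, with 1 carrier receptor gene lower. ALB was at 2.68 with a pseudocount of 5. COX18 was at 0.0014 with quantile normalization and 0.10 after removal of the length and GC trend. Over single libraries left out, its range was -0.0676 to 0.031, that of PLS1 -0.0897 to 0.0742, that of ONECUT2 -0.169 to 0.146, that of FCGRT -0.149 to 0.0196 and that of GATA4 -0.148 to 0.00882, none of which passed with all libraries. The cause of these shifts was not tested. With the replicate number as a block, 1939 genes were higher, 1962 lower and 2 factors lower. Same-numbered libraries had deviations from their group means correlated at -0.08, 0.34 and 0.15. The highest value was that of the libraries numbered 2, while control library 1 correlated best with BRD8 siRNA library 3 (0.33). Deviations within a group depend on one another, so these values cannot decide whether same-numbered libraries were paired. For the other named genes, 675 of 759 values under alternatives kept direction and call. Depth limits AFP, AFM and CDX2, which have at most 20 reads in any library.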
